A study of Mus musculus with 8 samples.

Results

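The genes of the DNA replication origin and fork were followed in retinoic acid (RA) treated mouse embryonic fibroblasts (MEFs). They were taken from the expression table by symbol: all MCM, ORC, GINS, RFC and RPA symbols, the primase subunits and the subunits of polymerases alpha, delta and epsilon, plus Pcna, Cdc6 and Cdt1. This rule found 43 of the 22200 genes in the table. They comprise 6 genes of the origin recognition complex, 8 licensing genes, 4 other MCM symbols, 4 GINS genes, 4 genes of polymerase alpha and primase, 4 each of polymerases delta and epsilon, 6 of the sliding clamp and its loader, and 3 of the single-strand binding protein RPA. The older symbols Orc1l to Orc6l are used as in the table, and Mcm3ap is included by its symbol although it encodes an MCM3-associated protein and not a helicase subunit. Cdc45 was also named by the rule, but the table lists it under another symbol, Cdc45l, so it is not counted among the 43.

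Chromosomal replication begins when the origin recognition complex, with CDC6 and CDT1, loads the MCM2 to MCM7 helicase onto DNA. CDC45 and the GINS complex then activate the helicase, primase with polymerase alpha lays down primers, and polymerases epsilon and delta extend the leading and lagging strands. The clamp PCNA, placed by the RFC loader, keeps the polymerases on the template, and RPA coats the exposed single strands. Transcription of many of these genes is under the control of E2F factors and rises as cells leave quiescence and approach S phase.

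RNA was measured in immortalised MEFs on a C57BL/6 background, and every library carries the genotype label TAF4-/-. The 8 libraries comprise 3 from untreated cells labelled 12 h, 3 from cells given RA for 12 h and 2 from cells given RA for 72 h. The study's RNA-seq methods name 1 cell line, the Taf4-/- line C3, while its parent line C1 expresses TAF4 and was also given RA in the study. The labels do not say that replicates were separate cultures. With 1 line and no such statement, p-values measure only the spread between these libraries, which may be technical. No untreated library was made at 72 h, so RA and time in culture cannot be told apart in any comparison that involves the 72 h libraries.

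Values are normalized read counts, which the authors had made equal in distribution between the 8 libraries, with a lowest possible value of 1. The depth of each library can no longer be read from them. Taf4a, the gene for TAF4, had values between 984 and 1449 in the 8 libraries, so its transcript was not low in cells labelled as lacking the protein. The RA response was present in every treated library: Cyp26b1, which encodes an RA-degrading enzyme, ranged from 40.4 to 73.0 in untreated cells and from 3252 to 6306 in treated cells. Of 12 fibroblast markers 9 had a mean of at least 10, with Vim, Col1a1 and Fn1 high throughout but Thy1, Lum and Dcn at or near the floor, whereas 1 of 5 listed epithelial, 1 of 6 haematopoietic, 3 of 4 endothelial and 1 of 3 pluripotent markers reached that mean, with no mean above the 21.6 of Emr1. Within groups the libraries differed along 1 shared axis that held 50.1% of the within-group variance. On one side of it lay replicate 3 of the untreated cells with replicates 1 and 2 of RA 12 h and replicate 1 of RA 72 h, and on the other side lay the remaining 4 libraries.

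To show the regulatory sequences of these genes, the 250 bases before the transcription start were read from RefSeq promoters (GRCm38.p6) for Rpa1 and Pold4, the genes that passed the test below, and for 4 genes that hold an E2F motif there, namely Orc1l, Cdc6, Mcm6 and Pola1. Each is written 5′ to 3′ on the strand of the gene, and capitals mark E2F motifs and CCAAT boxes on either strand.
Rpa1, chr11:75348384-75348633, minus strand: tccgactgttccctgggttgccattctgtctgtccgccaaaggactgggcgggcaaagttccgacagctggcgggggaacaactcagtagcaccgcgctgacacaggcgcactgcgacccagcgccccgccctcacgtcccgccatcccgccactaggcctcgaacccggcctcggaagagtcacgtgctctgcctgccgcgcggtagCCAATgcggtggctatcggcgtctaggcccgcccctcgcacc
Pold4, chr19:4231643-4231892, plus strand: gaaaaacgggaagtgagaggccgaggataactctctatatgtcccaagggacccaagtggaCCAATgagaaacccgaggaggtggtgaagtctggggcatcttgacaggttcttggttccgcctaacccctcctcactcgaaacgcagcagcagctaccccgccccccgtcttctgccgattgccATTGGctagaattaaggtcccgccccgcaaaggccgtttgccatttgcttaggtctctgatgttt
Orc1l, chr4:108579204-108579453, plus strand: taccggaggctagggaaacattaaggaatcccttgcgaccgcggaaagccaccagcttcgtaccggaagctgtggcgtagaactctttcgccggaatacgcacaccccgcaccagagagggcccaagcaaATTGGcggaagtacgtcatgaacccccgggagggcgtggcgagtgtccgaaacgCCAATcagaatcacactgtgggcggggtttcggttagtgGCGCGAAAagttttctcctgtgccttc
Cdc6, chr11:98907901-98908150, plus strand: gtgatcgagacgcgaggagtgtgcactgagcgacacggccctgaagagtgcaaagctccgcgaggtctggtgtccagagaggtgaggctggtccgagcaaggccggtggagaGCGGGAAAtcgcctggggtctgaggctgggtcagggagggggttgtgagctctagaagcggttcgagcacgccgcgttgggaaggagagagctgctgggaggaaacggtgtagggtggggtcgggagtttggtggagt
Mcm6, chr1:128359706-128359955, minus strand: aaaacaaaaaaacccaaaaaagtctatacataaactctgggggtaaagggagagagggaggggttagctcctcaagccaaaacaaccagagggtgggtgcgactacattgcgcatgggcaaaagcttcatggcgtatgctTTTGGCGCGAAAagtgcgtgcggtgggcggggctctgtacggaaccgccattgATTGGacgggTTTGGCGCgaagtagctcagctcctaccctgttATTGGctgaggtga
Pola1, chrX:93632156-93632405, minus strand: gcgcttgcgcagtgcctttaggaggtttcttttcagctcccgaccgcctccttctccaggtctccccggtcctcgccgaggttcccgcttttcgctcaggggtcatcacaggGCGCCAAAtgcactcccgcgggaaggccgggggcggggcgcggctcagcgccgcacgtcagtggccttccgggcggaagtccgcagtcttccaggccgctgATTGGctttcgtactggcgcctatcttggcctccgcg

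Rpa1 holds a CCAAT box that starts 42 bases before its transcription start, and Pold4 holds them 189 and 65 bases before. Neither promoter holds any of the E2F motifs searched. Mcm6 has overlapping motifs that start 110 and 106 bases before the start and a further one at 47 bases, Orc1l has one at 27 bases, and Cdc6 and Pola1 each have one at 138 bases. The motifs searched were TTTCGCGC, TTTGGCGC, TTTCCCGC and TTTGCCGC, on either strand, and they can overlap one another.

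Promoter windows of 300 bases, which include 50 bases after the start, were found for 36 of the 43 genes. An E2F motif was present in 16 of these (44.4%), against 704 of 27025 genes with a promoter in the same reference (2.60%). Among the 16 were Orc1l and Orc3l of the origin recognition complex, the licensing genes Cdc6, Cdt1, Mcm3, Mcm5, Mcm6 and Mcm7, and at the fork Gins3, Pola1, Pold1, Pold3, Pole2, Pole4 and Rfc3, together with Mcm8. CCAAT was present in 23 of 36 (63.9%), against 41.1% of all genes. AGGTCA, the half-site bound by RA receptors, was searched after the values had been seen, and was present in 4 of 36 (11.1%) against 18.1% of all genes, in neither Rpa1 nor Pold4. Direct repeats of that half-site or its variants (AGTTCA, together with GGGTCA, and also GGTTCA), spaced by 1, 2 or 5 bases, also searched after the values had been seen, were present in 1 of 36 (2.78%, Pold1) against 0.688% of all genes. A match is only a description of the sequence. The median log2 fold change at 72 h against untreated was -0.02 for the 15 tested genes with an E2F motif and -0.07 for the 19 without one.

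Of the 43 genes 41 had a mean of at least 10 and were tested. Rpa3, the smallest RPA subunit, was at the floor of 1 in all 3 libraries of RA 12 h and at 1.50 to 3.25 in the others, and Pole4, a small accessory subunit of polymerase epsilon, ranged from 1.50 to 13.4; neither was tested. The 43 genes, with these 2 included, were mostly well expressed, with a median level of 469 against 192 for all 12673 genes tested. In untreated cells, per exonic kilobase, Pold4 had the highest mean level of the 43 (3514), followed by Pcna (2505), Orc6l (1019), Rfc4 (840), Gins4 (827) and Mcm7 (812). Pold1, the catalytic subunit of polymerase delta, had the lowest per-kilobase level of the tested genes (6.77), far from those of its partner subunits Pold2 (146) and Pold3 (44.9). The labels describe libraries of short tags, for which levels may not scale with length, so this order is that of the table only.

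Few replication genes differed between the groups beyond the test's threshold. At 12 h against untreated, 1 of the 41 (Rpa1) was higher with an adjusted p below 0.05 and 0 were lower, against 2.87% and 1.50% of all genes tested. At 72 h against untreated 1 was higher (Rpa1) and 1 lower (Pold4), against 6.08% and 5.41%. Between RA 72 h and RA 12 h 0 were higher and 1 was lower (Pold4), against 2.92% in each direction. The counts are of limma adjusted p-values, and each is 1 gene or none beside a background of a few percent. In bulk RNA a lower share of cells that express a gene and less RNA per cell cannot be told apart.

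No replication gene reached 2-fold with an adjusted p below 0.05 by limma in any of the 3 comparisons, where 1.42%, 3.67% and 1.50% of all genes did. At an unadjusted p below 0.05 with no fold minimum, 2, 11 and 8 of the 41 passed in the 3 comparisons in the same order (4.88%, 26.8% and 19.5%, against 16.3%, 23.9% and 18.9% of all genes). Of these, 0 were at 2-fold, where the share of all genes was also small (1.77%, 4.28% and 1.92%). The intervals rest on the spread between these libraries, which may be technical, and so do not bound the change in other cultures. The 95% interval of the change lay wholly inside 2-fold for 40 of 41 genes at 12 h (85.5% of all genes), for 39 of 41 at 72 h (76.6%) and for 41 of 41 between 72 h and 12 h (82.1%). The exceptions were Rpa1 at both times and the sparse Pold1 at 72 h. The interval lay inside 1.5-fold for 36, 30 and 32 of the 41 (87.8%, 73.2% and 78.0%, against 56.2%, 44.4% and 46.3% of all genes).

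The median log2 fold change of the 41 genes was -0.06 at 12 h, -0.03 at 72 h and 0.04 between 72 h and 12 h, against -0.02, -0.02 and 0.00 for all genes tested. At 12 h 18 fitted changes were above 0 and 23 below (43.9% and 56.1%), with the same split at 72 h. Of all genes tested 47.5% were above and 52.5% below at 12 h, and 47.1% and 52.9% at 72 h. The fitted changes ran from -0.39 (Rfc2) to 0.86 (Rpa1) at 12 h and from -0.47 (Orc1l) to 0.85 (Rpa1) at 72 h. Without Rpa1 the highest at 72 h was 0.53, for Rfc5.

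**Figure D1:**
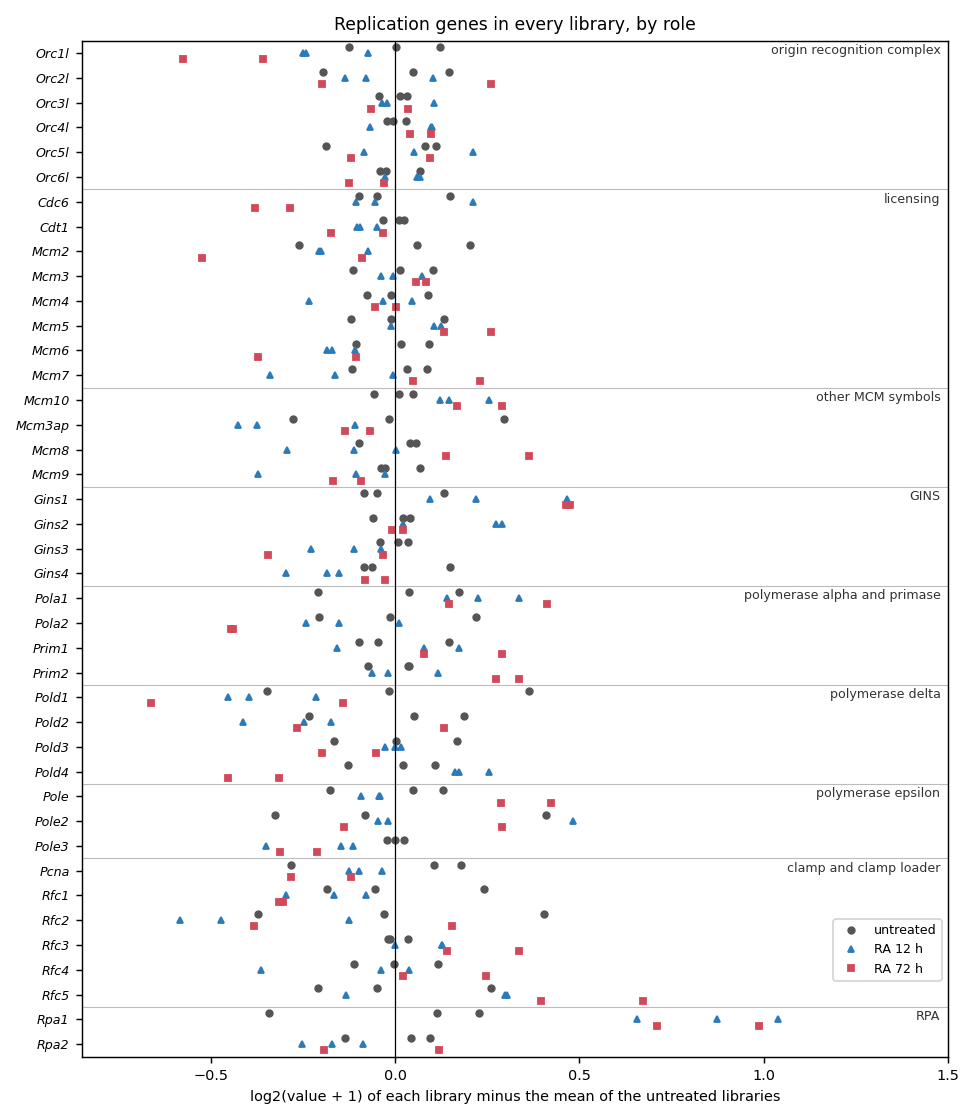
Each point is 1 library: log2(value + 1) of a gene (rows, grouped by role) minus its mean in the 3 untreated libraries (x axis, log2 units), for untreated (grey circles), RA 12 h (blue triangles) and RA 72 h (red squares). Untreated and RA 12 h values do not overlap in 17.1% of the 41 genes, against 20.0% of all genes tested. For untreated and RA 72 h this is 41.5%, against 36.6%. All 5 RA libraries of Rpa1 lie to the right of its untreated libraries, and both 72 h libraries of Pold4 lie to the left.

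**Figure D2:**
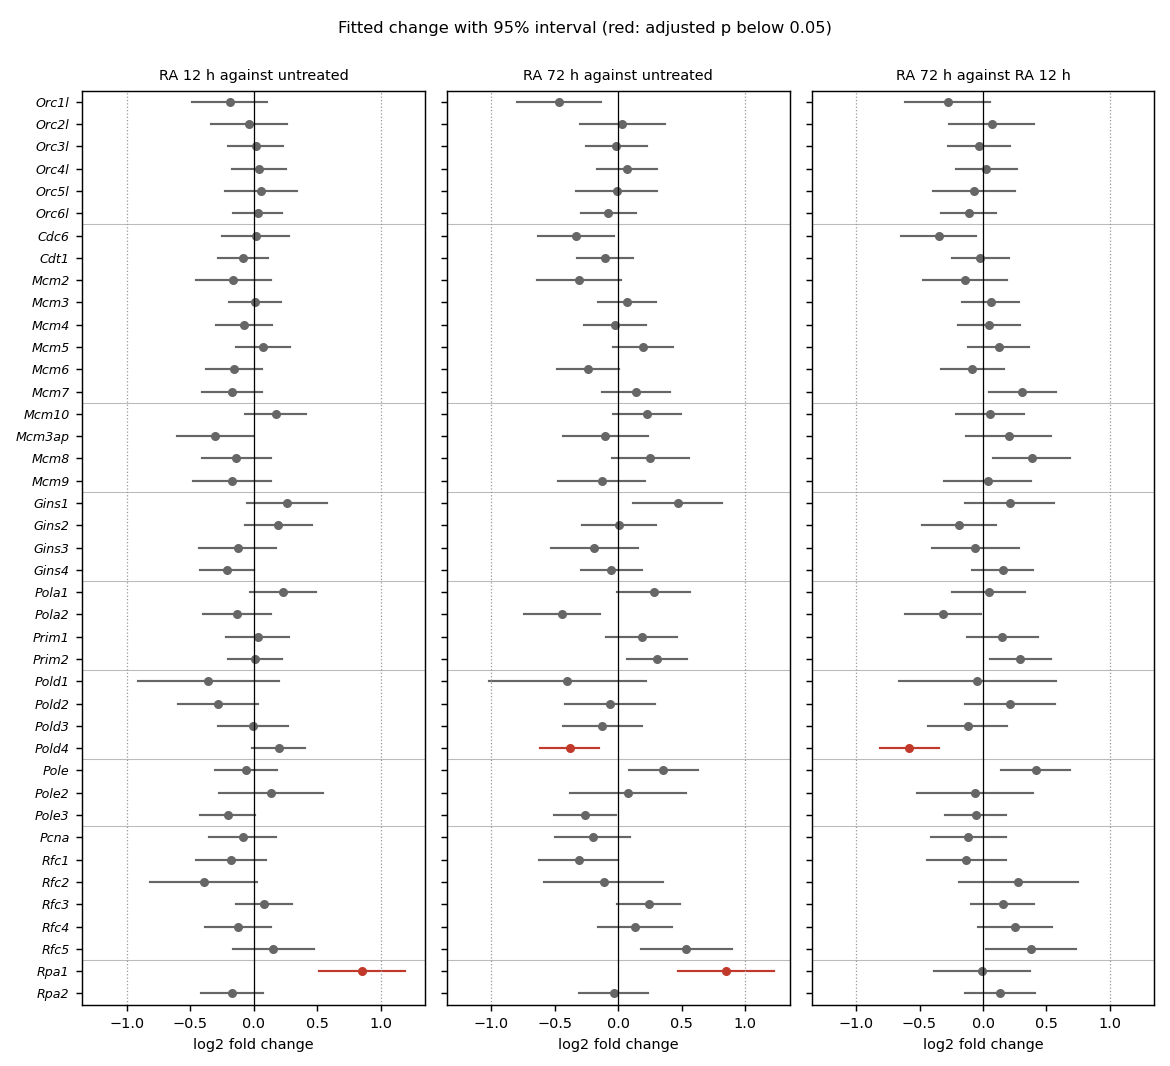
Fitted log2 fold change (points) with 95% intervals (bars) of the 41 tested genes in the 3 comparisons, with red marking an adjusted p below 0.05 by limma and dotted lines marking 2-fold. Rpa1 is red at 12 h and 72 h and Pold4 in both comparisons that involve 72 h against an earlier group, and nearly all other intervals stay between the dotted lines.

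Rpa1 encodes the largest subunit of RPA, which binds single-stranded DNA (mm9 chr11:75111668-75161826, minus strand). Its normalized read counts were 278, 301 and 203 in untreated cells, 406, 472 and 529 after 12 h of RA and 421 and 511 after 72 h. Every RA library lay above every untreated library, and the 12 h and 72 h values overlapped. The mean rose from 261 ± 51.6 (SD, n = 3) to 469 ± 61.4 (SD, n = 3) at 12 h, a log2 fold change of 0.86 with a standard error of 0.16 (limma adjusted p = 0.00537). At 72 h the mean was 466 ± 63.5 (SD, n = 2), a log2 fold change of 0.85 against untreated with a standard error of 0.18 (limma adjusted p = 0.0061). Between the RA groups it was -0.01, with a 95% interval from -0.39 to 0.37.

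Libraries on the same side of the within-group axis were also compared for Rpa1 (log2, no test). At 12 h its change was 0.87 on the side of untreated replicates 1 and 2 and 1.11 on the side of untreated replicate 3. At 72 h it was 0.82 and 1.05 on those sides, from RA 72 h replicate 2 and replicate 1 in turn. Because no RA value overlapped an untreated value, a rise on each side was fixed in advance and adds no support. The rise at 12 h kept its adjusted p below 0.05 under all 15 alternative settings, and the rise at 72 h under 14. Without RA 72 h replicate 2 the log2 fold change at 72 h was 0.71 with an adjusted p of 0.0821, the highest of a range that began at 2.09e-06 over the alternatives. Rpa2, the middle subunit of the same complex, was measured at 676 ± 55.6 (SD, n = 3) in untreated cells and had log2 fold changes of -0.17 at 12 h and -0.04 at 72 h (limma adjusted p = 0.49 and 0.9), with a 95% interval at 72 h from -0.31 to 0.24.

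Pold4 encodes the smallest subunit of polymerase delta, the accessory subunit known to be lost from the enzyme after DNA damage (mm9 chr19:4231899-4233631, plus strand). Its values were 2917, 3236 and 3441 in untreated cells, 3600, 3805 and 3570 at 12 h and 2565 and 2330 at 72 h. The 3 groups did not overlap, with the 12 h libraries highest and the 72 h libraries lowest. The change at 12 h did not pass the test (log2 fold change 0.20, 95% interval -0.01 to 0.41, limma adjusted p = 0.341). From 12 h to 72 h Pold4 fell by 0.58 on the log2 scale, with a standard error of 0.11 (limma adjusted p = 0.00644), to a fold of 0.668.

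Against untreated cells Pold4 at 72 h fell by 0.38 on the log2 scale, with a standard error of 0.11 (limma adjusted p = 0.0356). This smaller change kept its adjusted p below 0.05 under only 5 of 15 alternative settings, while its value ranged from -0.45 to -0.32 and its adjusted p from 0.00171 to 0.24. Among the settings that lost it were leaving out untreated replicate 2 or 3, RA 12 h replicate 1 or 2, or either RA 72 h library. The fall from 12 h to 72 h passed under 14 of 15 and failed without RA 72 h replicate 2 (-0.51, adjusted p = 0.103, with a lowest of 5.36e-05 over the alternatives). On the same side of the within-group axis the 72 h against untreated values were -0.40 and -0.42, and the 72 h against 12 h values -0.62 and -0.53 (log2, no test). Each side holds 1 library of RA 72 h. As the groups did not overlap, a fall on each side was fixed in advance and adds no support.

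The other polymerase delta subunits did not pass the test in any comparison. Pold1 had values of 41.8, 31.9 and 25.1 in untreated cells, 23.3, 24.3 and 27.6 at 12 h and 20.0 and 29.1 at 72 h, which overlap. Its log2 fold change at 72 h was -0.40 with the widest interval of the 41 genes, -1.02 to 0.22 (limma adjusted p = 0.44). Pold2, a regulatory subunit, and Pold3, a subunit that contacts PCNA, had log2 fold changes of -0.07 and -0.13 at 72 h. All 4 fitted values of polymerase delta were below 0 at 72 h, with a median of -0.25, as were 52.9% of all genes tested. The 95% intervals of Pold1, Pold2 and Pold3 include 0.

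**Figure D3:**
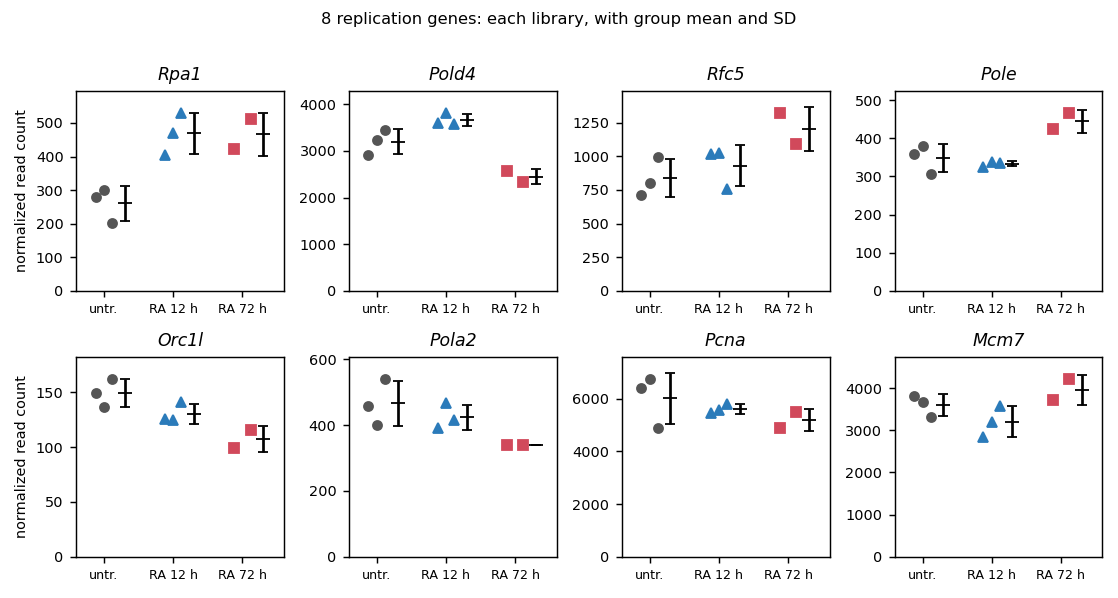
Normalized read counts (y axis, from 0) of 8 replication genes in each library, with the group mean and SD as black marks beside the points. Rpa1 is higher in all RA libraries than in any untreated library and Pold4 is lowest in both 72 h libraries, and the other 6 genes show the size of the differences that did not pass the test.

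Among origin recognition genes, which mark the sites where helicases are loaded, 0 of 6 passed the test in any comparison by limma. Orc1l, for the ATP-binding subunit whose abundance is known to follow the cell cycle, had the lowest fitted change. Its values were 149, 136 and 162 in untreated cells, 126, 125 and 141 at 12 h and 99.4 and 116 at 72 h. Both 72 h libraries lay below all untreated libraries, yet the log2 fold change of -0.47 missed the threshold (95% interval -0.80 to -0.13, limma adjusted p = 0.0735). The remaining 5 genes, Orc2l to Orc6l, had fitted changes at 72 h between -0.08 (Orc6l) and 0.07 (Orc4l), and at 12 h Orc5l was the highest of the group at 0.06.

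The licensing genes showed 0 of 8 past the test in all 3 comparisons by limma. Cdc6 encodes the loader that joins ORC to the helicase, and its values were 370, 312 and 322 in untreated cells, 322, 387 and 310 at 12 h and 256 and 274 at 72 h. Both 72 h libraries were below all 6 others, with a log2 fold change against untreated of -0.33 (95% interval -0.63 to -0.04, limma adjusted p = 0.156). Cdt1, its partner in loading, was among the steadiest genes, with values of 778, 809 and 802 untreated, 745, 742 and 769 at 12 h and 705 and 778 at 72 h. Its log2 fold change at 72 h was -0.10 (95% interval -0.33 to 0.12, limma adjusted p = 0.6).

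The 6 subunits of the MCM2 to MCM7 helicase had fitted changes at 12 h between -0.17 and 0.07 and at 72 h between -0.31 and 0.20, with a lowest adjusted p of 0.477 and 0.222 by limma. Mcm2 had the lowest at 72 h, from values of 1107, 1222 and 886 untreated and 739 and 998 at 72 h, which overlap (-0.31, 95% interval -0.64 to 0.02). Mcm5 had the highest, from 1682, 1559 and 1858 untreated to 2031 and 1857 at 72 h (0.20, 95% interval -0.04 to 0.43). Mcm6 had a log2 fold change of -0.24 at 72 h (95% interval -0.48 to 0.01), the only one of the 6 whose 72 h values lay wholly below its untreated values.

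Mcm3, Mcm4 and Mcm7 lay closer to 0 at 72 h, at 0.07, -0.03 and 0.14. Over the 3 comparisons no 95% interval of a helicase subunit reached beyond -0.64 or 0.57 on the log2 scale, so a 2-fold change of any subunit lay outside its interval. Mcm7 was 2833, 3203 and 3575 at 12 h and 3709 and 4209 at 72 h, which did not overlap, and its change between those times was 0.31 (limma adjusted p = 0.184). It overlaps Cops6 and Ap4m1 on the opposite strand, and the use of strand in counting is not given in the sources used here. Cops6 had a log2 fold change of 0.24 and Ap4m1 of -0.44 between the same times (limma adjusted p = 0.218 and 0.219). Rfc4, Rfc5, Orc2l, Orc4l, Gins2, Cdt1, Mcm3ap and Mcm9 also overlap annotated protein-coding genes, all on the opposite strand except for Cdt1.

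The other MCM symbols are a mixed group: Mcm8 and Mcm9 act in recombination, Mcm10 at helicase activation and Mcm3ap encodes the MCM3-associated protein. At 72 h against untreated their fitted changes ran from -0.13 (Mcm9) to 0.25 (Mcm8), and 0 of 4 passed in any comparison by limma. Mcm10 values were 224, 241 and 234 untreated, 278, 253 and 258 at 12 h and 285 and 262 at 72 h, so both RA groups lay above the untreated group, with log2 fold changes of 0.17 and 0.23 (limma adjusted p = 0.468 and 0.289). Mcm3ap had the lowest value of the group at 12 h, -0.30 (limma adjusted p = 0.298), with untreated values spread from 936 to 1394.

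The GINS genes, for the 4 subunits of the helicase activator, gave 0 of 4 past the test by limma in all 3 comparisons. Gins1 had the highest fitted change, from 112, 98.8 and 96.4 in untreated cells to 142, 119 and 109 at 12 h and 142 and 141 at 72 h. Its 72 h values lay above all untreated values (log2 fold change 0.47, 95% interval 0.12 to 0.82, limma adjusted p = 0.0894). Gins3 was lowest at 72 h, at -0.19, and Gins2 and Gins4 were at 0.01 and -0.06. Cdc45l, the partner of GINS in the active helicase, was 364, 398 and 330 untreated, 329, 328 and 393 at 12 h and 397 and 438 at 72 h, with a log2 fold change at 72 h of 0.20 (limma adjusted p = 0.404).

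In the polymerase alpha and primase group, which starts each new strand, 0 of 4 genes passed in any comparison by limma, and subunits of the same enzyme had fitted changes of opposite sign. Pola2, the accessory subunit, was 459, 401 and 540 untreated, 391, 466 and 416 at 12 h and 340 and 341 at 72 h. Both 72 h libraries were below all others (log2 fold change -0.44 against untreated, 95% interval -0.74 to -0.14, limma adjusted p = 0.0597). Pola1, the catalytic subunit, had a log2 fold change of 0.28 at 72 h, Prim1, the catalytic primase subunit, of 0.18, and Prim2, its partner, of 0.30 (limma adjusted p = 0.226, 0.439 and 0.105).

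Polymerase epsilon, the leading-strand enzyme, had 0 of 3 tested subunits past the test by limma. Pole, its catalytic subunit, was 359, 380 and 307 untreated, 325, 337 and 337 at 12 h and 424 and 466 at 72 h. The 72 h libraries lay above all 6 others, with log2 fold changes of 0.35 against untreated and 0.41 against 12 h (limma adjusted p = 0.0982 and 0.0773). Pole3, a histone-fold subunit, was lowest in the group at both times, -0.20 and -0.26. Pole2 was highest at 12 h, 0.14, but its untreated values of 788, 665 and 1108 spanned more than its fitted change.

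The clamp Pcna was 6408, 6736 and 4894 in untreated cells, 5462, 5559 and 5811 at 12 h and 4894 and 5478 at 72 h. The groups overlapped, and the log2 fold changes were -0.09 at 12 h and -0.20 at 72 h (95% interval -0.50 to 0.09, limma adjusted p = 0.41). Of the loader subunits, Rfc5 had the highest fitted change at 72 h, from 715, 799 and 991 untreated to 1319 and 1089. Those 72 h values lay above the untreated ones, with a log2 fold change of 0.53 (95% interval 0.18 to 0.89, limma adjusted p = 0.0555). Wsb2 shares 499 bases with Rfc5 on the opposite strand. Its mean was 54.6 untreated and 63.8 at 72 h (log2 fold change 0.24, limma adjusted p = 0.691). Rfc1, the large subunit, was lowest at 72 h, -0.31, and Rfc2 was lowest at 12 h, -0.39, with adjusted p-values of 0.207 and 0.341 by limma. Rfc3 and Rfc4 were at 0.24 and 0.13 at 72 h, and 0 of the 6 clamp and loader genes passed in any comparison.

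Values of the untreated and 12 h groups did not overlap for 7 of the 41 genes (17.1%), against 20.0% of all genes tested. At 72 h against untreated 17 of 41 (41.5%) did not overlap, 9 higher and 8 lower, against 36.6%, and between 72 h and 12 h 16 of 41 (39.0%), against 37.3%. These shares are close to the background in all 3 comparisons.

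The spread between replicates of the replication genes was itself small, with a median within-group SD of 0.13 log2 units against 0.19 for all genes tested. It ranged from 0.05 for Cdt1 to 0.34 for Rfc2 (0.335), and in 3 genes, Rfc2, Pole2 and Pold1, the highest untreated library exceeded the lowest by more than 1.5-fold. The deviations from the group means ran with the shared axis (Pearson r above 0.7 or below -0.7 over the 8 libraries, as a description) in 18 of 41 genes, in 6 with a positive and in 12 with a negative sign. This was 43.9% of them, against 44.7% of all genes tested. Mcm5 (r = 0.989), Pola1 (0.937) and Prim1 (0.913) had high values where Rfc2 (-0.972), Rpa1 (-0.965), Mcm2 (-0.95), Pcna (-0.94) and Pold2 (-0.938) had low ones, so that subunits of one complex deviated in opposite directions between replicates. The genomic span of the genes was shorter than that of all genes tested, with a median of 17.3 kb against 28.1 kb, and the part of span in these deviations was not tested for the replication genes alone.

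Other genes of the replication programme were read from hand-written lists. Of 20 regulators and other fork factors 0 passed at 12 h by limma, and 1 was higher at 72 h against untreated, beside a background of 6.08%, with a list median of 0.10. This gene was Dbf4, the activating subunit of the CDC7 kinase that fires origins, with a mean of 341 untreated and 562 at 72 h (log2 fold change 0.72, standard error 0.12, limma adjusted p = 0.00106). Of 12 E2F and pocket protein genes, which control the transcription of replication genes, 0 passed in any comparison by limma, and the list median at 72 h was 0.07. Over all genes tested 2.87% were higher and 1.50% lower at 12 h, and 6.08% and 5.41% at 72 h. Between 72 h and 12 h the share was 2.92% in each direction. A count of 0 in a list of 12 is near these shares.

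Deoxynucleotide supply genes make or degrade the substrates of the polymerases. Of 13 tested 0 passed at 12 h by limma, and at 72 h 3 were higher and 1 was lower than untreated, against 6.08% and 5.41% of all genes, with a list median of 0.06. Tk1, thymidine kinase, rose by a log2 fold change of 0.83 from a mean of 664 to 1179, and Tyms, thymidylate synthase, by 0.53 (limma adjusted p = 0.013 and 0.0291). Rrm2, the regulated subunit of ribonucleotide reductase, rose by 0.48, and Dctd, a deaminase of dCMP, fell by 0.51 (limma adjusted p = 0.0282 and 0.0297). Rrm2 is named in addition to the 3 largest changes among those that passed. The count depended on the libraries and the fit: higher genes numbered 0 without RA 72 h replicate 1, 1 without untreated replicate 1, 1 without RA 12 h replicate 2, 1 with no filter on low values, 1 with the replicate block and 0 with no variance trend, and Dctd no longer passed without untreated replicate 2, RA 12 h replicate 2 or RA 72 h replicate 2, with the replicate block or with no variance trend. Between 72 h and 12 h 0 of the 13 were higher and 2 were lower, against 2.92% of all genes in each direction. The lower genes were Dctd and Samhd1, a deoxynucleotide hydrolase. Both were lost without RA 12 h replicate 1 or 2 and with no variance trend. With no filter on low values and with the replicate block only 1 gene was lower. Leaving out either RA 72 h library leaves 1 in that group, and for this list and comparison only the medians of those fits are given. They were 0.17 without replicate 1 and 0.14 without replicate 2, beside 0.20 with all libraries. Calls given elsewhere for fits without an RA 72 h library likewise rest on 1 library at 72 h.

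The mitosis list is given as a comparison from the same libraries. Of its 17 tested genes 0 passed at 12 h by limma, with a median of -0.03, whereas at 72 h 16 were higher than untreated and 0 lower, with a median log2 fold change of 0.90, beside 1 of 41 higher among the replication genes and a background of 6.08%. Cdc20, an activator of the anaphase-promoting complex, rose by 1.60 from a mean of 41.2 to 122, Bub1b, a checkpoint kinase, by 1.31 from 1112 to 2754, and Cenpe, a kinetochore motor, by 1.12 from 570 to 1237 (limma adjusted p = 0.00314, 3.5e-06 and 5.26e-05). The count of mitosis genes higher at 72 h was 11 without RA 72 h replicate 2 and 13 without RA 72 h replicate 1. The lists were chosen with earlier results of these data known, and the difference between them was not tested.

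**Figure D4:**
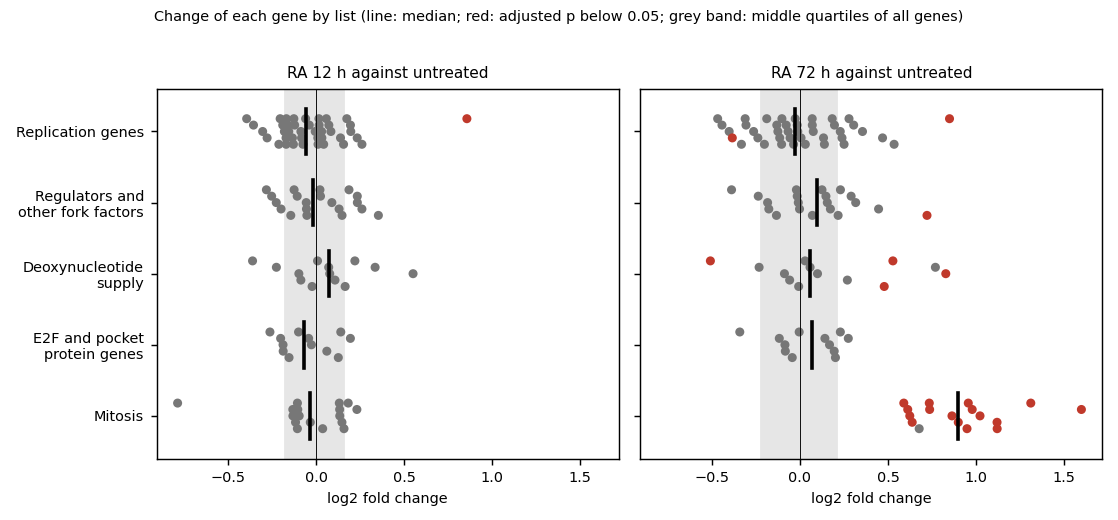
Fitted log2 fold change (x axis) of each gene of the replication set and of the 4 other lists (rows) at 12 h and at 72 h against untreated, with black lines for list medians, red for an adjusted p below 0.05 by limma and a grey band for the middle quartiles of all genes tested. At 12 h all 5 medians lie within the band, and at 72 h the mitosis median of 0.90 lies outside it while the replication median of -0.03 stays inside.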

How the data were processed

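Expression was measured in 8 libraries of poly(A) RNA. The labels describe DpnII tag libraries. The study's methods instead describe fragmented RNA aligned to mm9 with Tophat, counted with Cufflinks and normalized with DESeq by the authors. Those methods also give another later time than the 72 h of the labels, while the study's results text gives 72 h as the labels do. The labels were followed. The design text counts 7 samples, and 8 were used. The sample titles carry cl1, and the genotype label TAF4-/- was followed. The authors deposited normalized reads per gene, a signal with 1 identical distribution in all 8 columns (quantile normalization, as their sorted values show), so the values are not raw counts and were not treated as such. The deposited log2 ratios of group averages were not used.

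The scale of all tests was log2 of the value plus 1, on the 12673 genes whose mean over the libraries reached 10, and the 3 groups were fitted in one model with limma 3.58.1 (R 4.3.3) with a variance trend. P-values are two-sided, adjusted by Benjamini-Hochberg within each comparison, and fold changes understate those of low genes. Tests of 200 simulated changed genes recovered 94 at a log2 change of 0.5 and 176 at a log2 change of 1 at 12 h against untreated, and 76 and 168 at 72 h against untreated. False calls numbered 2 and 10 at 12 h and 3 and 16 at 72 h. The simulated noise was independent between libraries, with a smoothed SD per level and no shared within-group axis. Recovery in the real libraries may therefore differ. Coordinates and exonic lengths are from the GENCODE annotation of mm9. Promoters were matched by symbol or synonym to RefSeq. Genes chosen in advance to be named were Pcna, Cdc6, Cdt1, Mcm2 to Mcm7 and the highest and lowest change of each role, with up to 3 passing genes from each list. Some of them, such as Mcm3, Mcm4 and Gins3, are given by fitted change without library values. The members and lists were chosen with earlier results of these data known. Alternatives were another pseudocount, 2 other filters, no variance trend, a replicate block, the within-group axis as a covariate, adjustment for gene span and leaving out each library.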

Additional observations from a re-analysis of the deposited data

Results flagged for a closer look

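Pold4 had different changes at the 2 times of RA treatment, by the test of that difference. Against the same untreated libraries its log2 fold change was 0.20 at 12 h and -0.38 at 72 h, and the difference of -0.58 between them had a limma adjusted p of 0.00644, with both 72 h libraries below all 3 libraries of RA 12 h. Time in culture and length of treatment cannot be told apart here. No group held enough libraries for a test of single outlying libraries.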

How the results depend on the processing

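No alternative gave a replication gene at 2-fold, and the median change stayed within 0.08 log2 units of 0 in all of them. With the within-group axis as a covariate more genes passed: 2 higher and 2 lower at 12 h, 6 and 7 at 72 h against untreated, and 5 and 3 between 72 h and 12 h. That covariate was taken from the same residuals, so these p-values are too small. At 72 h against untreated 0 genes were lower with no filter on low values, with no variance trend, with the values adjusted for gene span or with the replicate block (Pold4 lost). Replicate numbers did not pair the libraries (correlations of same-numbered libraries from -0.474 to 0.42). The replicate block also gave a median of -0.0028 between 72 h and 12 h.

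When each library was left out in turn, 1 gene was higher at 12 h throughout and 0 to 2 were lower. At 72 h against untreated 0 to 2 were higher and 0 to 1 lower, with a median from -0.0524 to 0.0211, and between 72 h and 12 h 0 to 1 were higher and 0 to 1 lower, with a median from -0.0011 to 0.0568. Without untreated replicate 3, Rfc2 and Mcm3ap were lower at 12 h, Rfc5 was higher and Mcm2 lower at 72 h against untreated, and Pole was higher at 72 h against 12 h. Rfc5 also passed without RA 12 h replicate 3 and Pola2 without untreated replicate 2. Without RA 72 h replicate 2 neither Rpa1 nor Pold4 passed in a comparison with 72 h. No library depth can be recovered from these values, so no counting error can be given.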
